A study of Rattus norvegicus with 9 samples.

Results

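The 101 genes described here write, remove or read marks on histones and DNA, or move nucleosomes. They were taken from the 14217 genes named by the array annotation, where the gene symbol matched 1 of 13 family patterns. The families are Smarc (13 genes), Chd (9), Brd (8), Hdac (10), Sirt (6), Kdm (15), Kmt (8), Setd (9), Prmt (7), Dnmt (3), Tet (3), Cbx (6) and the Polycomb repressive complex 2 (PRC2) core of Ezh1, Ezh2, Suz12 and Eed (4). The families were chosen with earlier results of these data known, and genes were then matched by name and not by any measured value. Some members therefore act mainly on other substrates, such as Hdac6 (tubulin), Setd3 (actin) and Sirt3, Sirt4 and Sirt5 (mitochondrial proteins). Brd3os is an RNA transcribed opposite to Brd3 and is counted only because its symbol matched.

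RNA was measured on 9 Affymetrix Rat Genome 230 2.0 arrays, in 3 biological replicates each of rESC-RPC2, rESC-RPC1 and P-RPC. The rESC-RPC2 and rESC-RPC1 cells were differentiated from 1 embryonic stem cell line of DA rats, DA8-16, by the SFEBq aggregate method with Matrigel and the Wnt inhibitor IWR-1e, with FBS from day 8, and both were harvested at day 16. The rESC-RPC2 aggregates stayed in suspension until day 14 before adherent culture, whereas rESC-RPC1 cells were adherent from day 10 and received N2 medium with FBS at day 14. P-RPC were freshly dissociated neural retina cells of SD rats at postnatal day 1, with no sorting described. Strain, and culture against fresh tissue, cannot be told apart from cell type in any comparison with P-RPC, and medium cannot be told apart from the day of adherence between the rESC-RPCs.

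Genes are packed around histones, and what a cell can transcribe depends on that packing. Remodelers of the SWI/SNF (BAF), ISWI and CHD families use ATP to slide or evict nucleosomes, Polycomb complexes hold developmental genes silent through methylation of histone H3 lysine 27, and acetyl and methyl marks are set and erased by dedicated enzymes. In the developing nervous system, progenitors and neurons assemble BAF complexes from different subunits of the same families, which makes subunit choice a known feature of neuronal differentiation.

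The labels were checked first against markers of the expected cells. Pax6, a master regulator of eye development, averaged 84.7 ± 24 in rESC-RPC2, 118 ± 74.3 in rESC-RPC1 and 13972 ± 423 in P-RPC, and Rax averaged 141 ± 74.2 in rESC-RPC2, 249 ± 124 in rESC-RPC1 and 4623 ± 69.6 in P-RPC. The paper reported both in the rESC-RPCs by staining and by RT-qPCR, at lower levels than in P-RPC. Of 7 tested retinal progenitor markers, 6 were called lower in rESC-RPC2 and 4 in rESC-RPC1 against P-RPC. In each, 1 passed the adjusted p as higher, under 2-fold. The summed signal of the 8 on the array was 12413 to 13615 in rESC-RPC2, 15815 to 21575 in rESC-RPC1 and 43351 to 45055 in P-RPC. Photoreceptor markers were lower in both rESC-RPCs (7 of 7 tested in each comparison), 5 of 10 microglial markers passed the detection threshold on all 3 P-RPC arrays and none on any rESC-RPC array, and 6 of 6 tested mesenchymal markers were higher in both rESC-RPCs. Of 7 tested astrocyte and radial glia markers, 3 were called higher in rESC-RPC2 and 6 in rESC-RPC1 against P-RPC, and 3 were called lower in rESC-RPC2 against rESC-RPC1. The summed signal of the 9 on the array was 35797 to 36900 in rESC-RPC2, 38375 to 47875 in rESC-RPC1 and 15000 to 18767 in P-RPC, and Gfap averaged 979 ± 442 in rESC-RPC2, 3689 ± 194 in rESC-RPC1 and 59.1 ± 10.4 in P-RPC. The part of these cells in the differences between the groups was not tested. The summed signal of 11 lens genes was 130635 in P-RPC replicate 1, against 1858 and 5373 in the other P-RPC replicates. Markers of several cell types thus differed between the groups, and in bulk RNA fewer cells of a type and less RNA per cell cannot be told apart.

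To show what kind of start sites these genes have, promoter sequences (250 bases before to 50 bases after the start) were taken from RefSeq on build GRCr8, where 86 of the 101 members were found. Their median GC content was 63.2%, against 52.3% over all 27457 rat promoters in the table, and they held a median of 24 CpG dinucleotides, against 7. A GC box (GGGCGG on either strand) was present in 72.1% of the members' promoters and in 34.9% of all. The NRF1 motif was present in 11.6% of the members' promoters and in 4.71% of all, and the E2F motif TTTNGCGC in 6.98% and 1.37%. CCAAT boxes (CCAAT, either strand) were about as frequent, at 40.7% and 37.7%, and the TATA motif TATAAA was rarer, at 2.33% and 14.3%. CRE (TGACGTCA) was held by 3.49% and 1.91%, and the E-box CACGTG by 6.98% and 6.65%. These motifs can overlap each other, and a match describes letters only.

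The promoters of 6 members are shown: Prmt8 and Smarcd3, which were higher in both rESC-RPCs, Smarca1, which was higher in rESC-RPC2, Kdm7a and Cbx7, which were lower in both, and Ezh2, which holds an E2F match. Capitals mark GC box, CCAAT, E2F, CRE and NRF1 matches on either strand. Prmt8 lies at chr4:162303296-162303595 (minus strand), Smarcd3 at chr4:11440950-11441249 (plus strand), Smarca1 at chrX:131944233-131944532 (minus strand), Kdm7a at chr4:68992930-68993229 (minus strand), Cbx7 at chr7:113358297-113358596 (minus strand) and Ezh2 at chr4:77687134-77687433 (minus strand), all on GRCr8 and printed 5′ to 3′ on the gene's strand.
Prmt8: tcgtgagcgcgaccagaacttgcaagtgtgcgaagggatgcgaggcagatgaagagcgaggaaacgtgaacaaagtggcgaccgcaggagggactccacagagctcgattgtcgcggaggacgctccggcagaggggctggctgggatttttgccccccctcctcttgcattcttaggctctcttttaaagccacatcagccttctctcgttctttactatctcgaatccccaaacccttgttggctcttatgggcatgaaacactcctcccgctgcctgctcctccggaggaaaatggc
Smarcd3: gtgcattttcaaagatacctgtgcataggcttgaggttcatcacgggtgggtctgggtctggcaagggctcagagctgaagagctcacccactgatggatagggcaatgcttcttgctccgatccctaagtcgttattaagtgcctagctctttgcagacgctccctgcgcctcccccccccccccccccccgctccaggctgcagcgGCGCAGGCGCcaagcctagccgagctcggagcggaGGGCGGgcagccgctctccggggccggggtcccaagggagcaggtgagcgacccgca
Smarca1: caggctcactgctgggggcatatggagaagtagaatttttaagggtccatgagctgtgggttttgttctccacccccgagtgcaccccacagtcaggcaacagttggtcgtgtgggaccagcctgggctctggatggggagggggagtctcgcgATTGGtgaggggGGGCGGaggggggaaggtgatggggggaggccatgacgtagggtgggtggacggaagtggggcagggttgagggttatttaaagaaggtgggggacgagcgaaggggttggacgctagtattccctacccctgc
Kdm7a: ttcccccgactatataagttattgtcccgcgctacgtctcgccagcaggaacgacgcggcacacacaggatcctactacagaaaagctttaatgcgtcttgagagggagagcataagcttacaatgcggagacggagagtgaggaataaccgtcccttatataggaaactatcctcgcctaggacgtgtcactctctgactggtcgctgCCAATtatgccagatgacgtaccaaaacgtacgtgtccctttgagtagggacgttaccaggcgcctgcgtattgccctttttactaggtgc
Cbx7: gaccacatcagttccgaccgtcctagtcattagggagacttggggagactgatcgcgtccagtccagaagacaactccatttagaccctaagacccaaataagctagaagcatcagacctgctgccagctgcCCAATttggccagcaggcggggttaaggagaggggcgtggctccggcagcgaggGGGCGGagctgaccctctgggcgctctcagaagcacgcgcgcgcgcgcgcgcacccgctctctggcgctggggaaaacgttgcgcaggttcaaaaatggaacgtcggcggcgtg
Ezh2: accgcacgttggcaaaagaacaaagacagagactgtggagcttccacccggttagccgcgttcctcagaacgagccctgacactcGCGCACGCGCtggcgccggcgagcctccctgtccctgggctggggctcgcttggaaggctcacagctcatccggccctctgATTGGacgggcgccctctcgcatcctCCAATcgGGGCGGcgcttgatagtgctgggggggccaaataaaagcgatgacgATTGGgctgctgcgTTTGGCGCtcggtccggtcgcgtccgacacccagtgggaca
The Prmt8 window held none of these motifs and that of Kdm7a a CCAAT box, whereas Smarcd3 held a GC box beside an NRF1 match. Ezh2 carried a GC box, an E2F match, an NRF1 match and 3 CCAAT boxes. E2F matches were also found in Dnmt1, Kdm1a, Smarce1, Brd2 and Brd7.

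A gene was tested when its signal reached a detection threshold of 123, the median of all signals, on at least 3 of 9 arrays, and it was called when the limma adjusted p was under 0.05 and the change at least 2-fold. Of the 101 members, 95 were tested and 89 of these reached the threshold on all 9 arrays. Cbx8, Dnmt3b, Hdac10, Hdac4, Kdm4c and Kdm4d were not tested. Dnmt3b, a de novo DNA methyltransferase, had signals of 8.46, 12 and 26.7 in rESC-RPC2 and 15.7, 7.41 and 19.3 in rESC-RPC1, against 3.03, 20.4 and 5.23 in P-RPC, far under the threshold. Cbx8, a Polycomb reader, had signals of 71.5, 44.7 and 43.1 in rESC-RPC2 and 65.7, 52.6 and 73 in rESC-RPC1, against 129, 157 and 109.8 in P-RPC, so that it passed the threshold in P-RPC alone and on 2 arrays. Large changes were few: 5 members were higher and 9 lower in rESC-RPC2 against P-RPC, which is 14.7% of the members where 23.8% of all 9956 genes tested were called (10.8% higher, 13.0% lower). In rESC-RPC1 against P-RPC, 4 were higher and 7 lower, or 11.6% of the members against a background of 21.6% (12.0% higher, 9.59% lower). Between rESC-RPC2 and rESC-RPC1 only Smarca1 was called, which is 1.05% of the members against 14.3% of all genes (5.08% higher, 9.25% lower). The members were brighter, with a median signal of 1019 beside 708 for all genes tested. The part of signal level in these shares was not tested. Each gene was read from its brightest probe set. For 29 members 44 further probe sets were tested, and where the main one passed the adjusted p, the further ones passed with the same sign in 15 of 27 cases in rESC-RPC2 against P-RPC, 16 of 27 in rESC-RPC1 against P-RPC, while between the rESC-RPCs 4 of 15 did. In rESC-RPC2 against P-RPC, a further probe set of Kdm5c passed with the opposite sign (log2 0.39, adjusted p = 0.0268, where the main one gave -0.38). The rest did not pass.

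**Figure D1:**
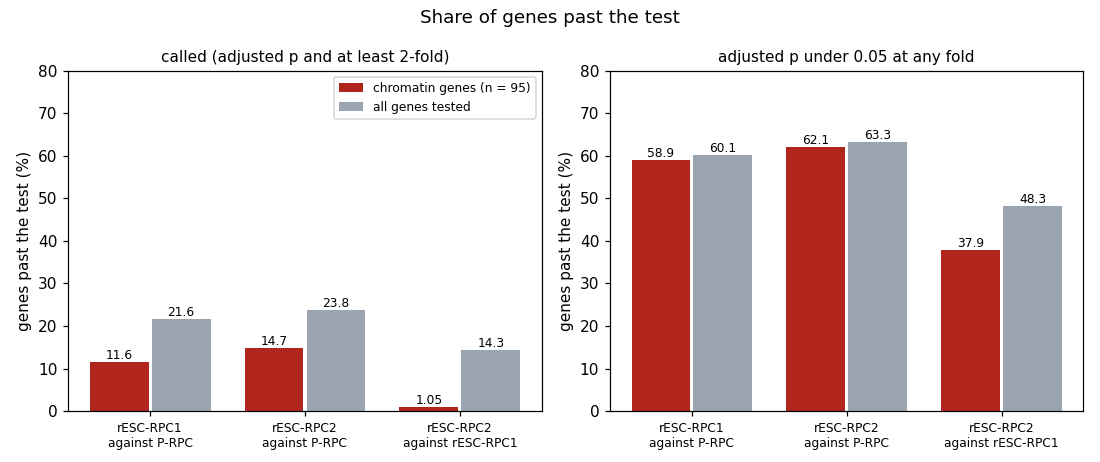
Bars give the percentage of genes past the test, for the 95 chromatin genes (red) and for all 9956 genes tested (grey), with the 2-fold requirement (left) and at an adjusted p under 0.05 at any fold (right). With the 2-fold requirement the chromatin genes lay below all genes in each comparison, while at any fold the bars were close against P-RPC (62.1% and 63.3% for rESC-RPC2).

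Against P-RPC the shares were close when no minimum fold was asked. At an adjusted p under 0.05 with no minimum fold, 59 members (62.1%) passed in rESC-RPC2 against P-RPC where 63.3% of all genes did, and 56 (58.9%) in rESC-RPC1 against P-RPC where 60.1% did. Between the rESC-RPCs 36 members (37.9%) passed, against 48.3% of all genes. The median absolute log2 change of the members was 0.44, 0.40 and 0.25 in the comparisons of rESC-RPC2 with P-RPC, rESC-RPC1 with P-RPC and rESC-RPC2 with rESC-RPC1, beside 0.49, 0.44 and 0.35 over all genes. The 90th percentile was 1.19, 1.11 and 0.64 for the members, beside 1.75, 1.76 and 1.24 for all genes. The members also leaned downward against P-RPC, with a median log2 change of -0.24 in rESC-RPC2 and -0.23 in rESC-RPC1, where the medians of all genes were -0.02 and -0.01. Of the members past the adjusted p, 41 were lower and 18 higher in rESC-RPC2 against P-RPC, and 37 lower and 19 higher in rESC-RPC1 against P-RPC, whereas 33.0% of all genes were lower and 30.3% higher in rESC-RPC2, and 30.1% lower and 30.0% higher in rESC-RPC1. Between the rESC-RPCs, 18.0 members were lower and 18.0 higher in rESC-RPC2, where 27.0% of all genes were lower and 21.3% higher.

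**Figure D2:**
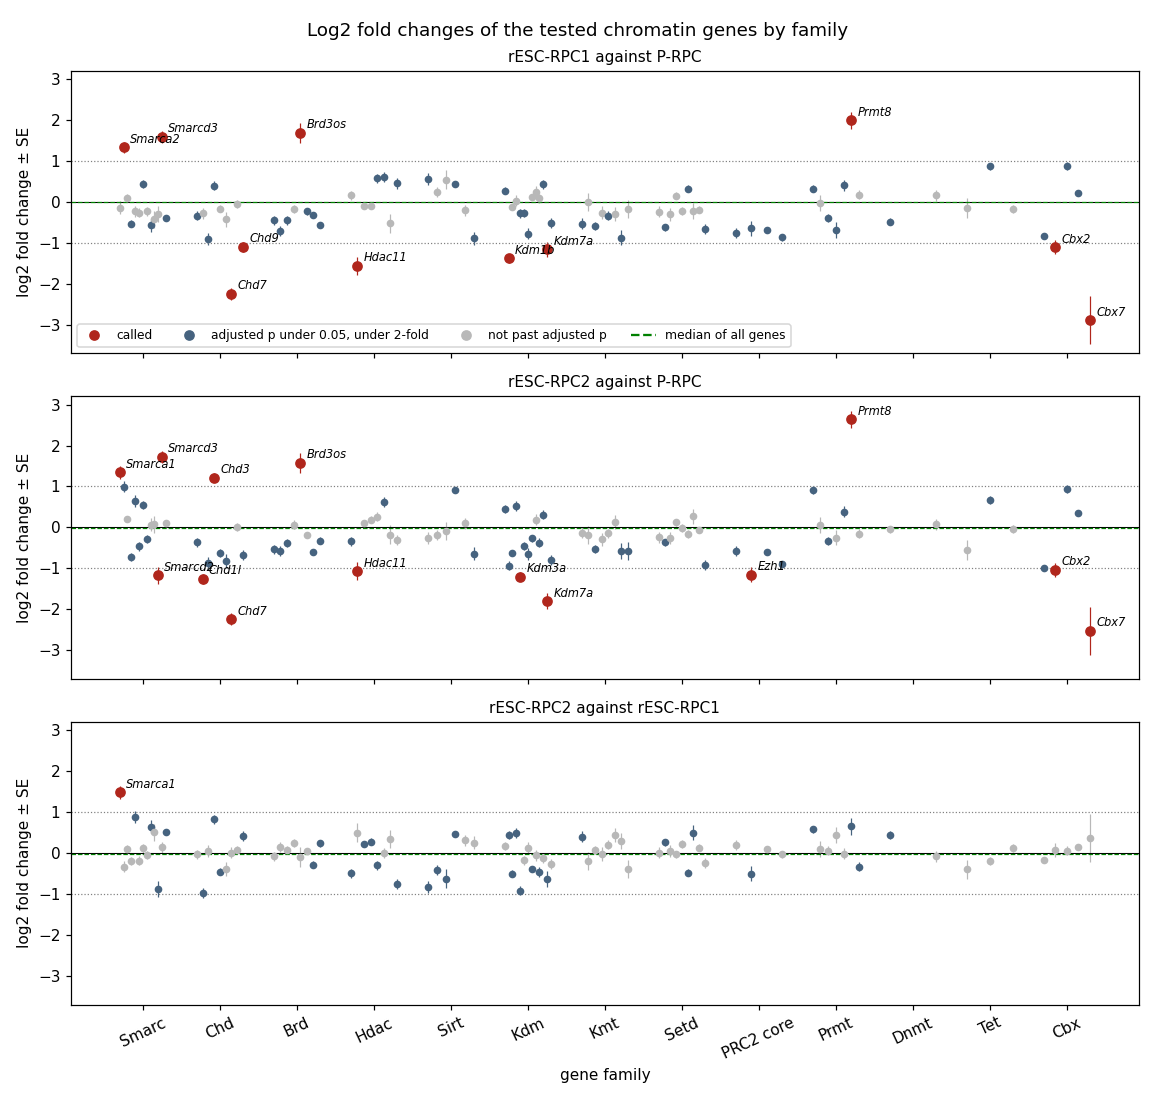
Each point is the log2 fold change of 1 tested chromatin gene with its SE (limma, 3 arrays a group), grouped by family, for the 3 comparisons from top to bottom. Called genes are red and named, dotted lines mark 2-fold, and the bottom panel holds a called gene, Smarca1, at 1.49.

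Of the 13 Smarc genes, mostly subunits of SWI/SNF, 2 rose and 1 fell in rESC-RPC2 and 2 rose and none fell in rESC-RPC1 against P-RPC. These are 23.1% and 15.4% of the 13, where 23.8% and 21.6% of all genes were called. Smarcd3 encodes BAF60C, a BAF subunit used in muscle and in neurons. It is among the genes the study itself listed from these arrays, so its change is no independent evidence. It had signals of 945, 921 and 844 in rESC-RPC2 and 771, 715 and 1004 in rESC-RPC1, against 306, 237 and 281 in P-RPC. Every rESC-RPC array lay above every P-RPC array, and Smarcd3 rose 3.30-fold in rESC-RPC2 (log2 1.72 ± 0.14, SE, adjusted p = 3.58e-06) and 3.01-fold in rESC-RPC1 (log2 1.59 ± 0.14, adjusted p = 7.15e-06). The rESC-RPCs overlapped each other. Its paralog Smarcd2 (BAF60B) had signals of 144, 159 and 94.1 in rESC-RPC2 and 265, 213 and 235 in rESC-RPC1, against 288, 302 and 283 in P-RPC. It fell in rESC-RPC2 relative to P-RPC (log2 -1.17 ± 0.20, adjusted p = 0.000468), and this call was lost without rESC-RPC2 replicate 3, the lowest array (log2 -0.94). Smarcd1 (BAF60A) passed the test in none of the comparisons, with log2 0.08 ± 0.20 in rESC-RPC2 and -0.43 ± 0.20 in rESC-RPC1 against P-RPC.

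Smarca2 encodes BRM, 1 of the alternative BAF ATPases, and had signals of 1061, 1443 and 1412 in rESC-RPC2 and 1851, 1411 and 1663 in rESC-RPC1, against 705, 633 and 612 in P-RPC. All rESC-RPC arrays were above all P-RPC arrays. It rose 2.52-fold in rESC-RPC1 (log2 1.33 ± 0.14, adjusted p = 1.94e-05), and in rESC-RPC2 its log2 change of 1.00 ± 0.14 lay just under the 2-fold limit (adjusted p = 0.000134). A further probe set of Smarca2 gave a call between the rESC-RPCs, lower in rESC-RPC2 by log2 -1.29 (adjusted p = 0.00117), where the main probe set gave -0.34 ± 0.14 (adjusted p = 0.0715) and a dimmer one -0.31 (adjusted p = 0.738). The dimmer one, with a mean signal of 90.4, was called higher against P-RPC in rESC-RPC2 (log2 1.97, adjusted p = 0.0249) and in rESC-RPC1 (log2 2.28, adjusted p = 0.0133). The alternative ATPase Smarca4 (BRG1) had the smallest changes of the family, at 3388 ± 148 in rESC-RPC2, 3149 ± 77 in rESC-RPC1 and 2949 ± 288 in P-RPC, and passed the test in no comparison. Core subunits moved less than 2-fold: Smarcb1 was higher against P-RPC (log2 0.54 ± 0.11 in rESC-RPC2 and 0.43 ± 0.11 in rESC-RPC1), while Smarcc2 and Smarce1 were higher in rESC-RPC2 than in rESC-RPC1 by 0.64 ± 0.16 and 0.51 ± 0.07 on their main probe sets. The further probe set of Smarcc2 gave 0.14 (adjusted p = 0.206), and those of Smarce1 gave 0.40 (adjusted p = 0.00508) and 0.09 (adjusted p = 0.648).

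The other BAF subunits were read from a list of 18 genes on the array, 16 of them tested. In rESC-RPC2 against P-RPC 4 rose and none fell, and the same count held in rESC-RPC2 against rESC-RPC1, while 1 rose and 1 fell in rESC-RPC1 against P-RPC. Over all genes tested, 10.8% rose and 13.0% fell in rESC-RPC2 against P-RPC, 5.08% and 9.25% in rESC-RPC2 against rESC-RPC1, and 12.0% and 9.59% in rESC-RPC1 against P-RPC. The 4 higher in rESC-RPC2 were Dpf1, Actl6b, Bcl11a and Bcl11b. Dpf1 (BAF45B) and Actl6b (BAF53B) are subunits of neuronal BAF complexes, and Bcl11a and Bcl11b are zinc finger factors that also act as BAF subunits. Dpf1 had signals of 1230.0, 1281 and 1289 in rESC-RPC2 and 462, 469.6 and 406 in rESC-RPC1, against 297, 315 and 304 in P-RPC, so that the groups did not overlap. In rESC-RPC2 it rose 4.15-fold over P-RPC (log2 2.05 ± 0.10, adjusted p = 7.87e-08) and 2.85-fold over rESC-RPC1 (log2 1.51 ± 0.10). Actl6b had signals of 332, 243 and 357 in rESC-RPC2 and 125, 116 and 128 in rESC-RPC1, against 156, 137 and 165 in P-RPC, with rESC-RPC2 above all other arrays (log2 1.01 ± 0.18 against P-RPC and 1.32 ± 0.18 against rESC-RPC1). Its progenitor-type paralog Actl6a (BAF53A) was lower in both rESC-RPCs at under 2-fold, by log2 -0.89 ± 0.09 in rESC-RPC2 and -0.79 ± 0.09 in rESC-RPC1. Bcl11b had the largest change of the list, at 6070.3 ± 471 in rESC-RPC2, 2256 ± 611 in rESC-RPC1 and 526 ± 64.9 in P-RPC, and was 11.6-fold higher in rESC-RPC2 and 4.19-fold higher in rESC-RPC1, both relative to P-RPC. The DNA-binding subunit Arid1b fell in rESC-RPC1 (log2 -1.00 ± 0.12, adjusted p = 4.99e-05). Of 11 neuronal marker genes, 6 were called higher and 1 lower in rESC-RPC2 against P-RPC, and 8 were called higher in rESC-RPC2 against rESC-RPC1. In rESC-RPC1 against P-RPC, where Bcl11b rose, 1 of the 11 was called higher and 2 lower. The summed signal of the 11 was 52832 to 58806 in rESC-RPC2, 20741 to 30526 in rESC-RPC1 and 26053 to 30900 in P-RPC. The part of these marker genes in the subunit changes was not tested.

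**Figure D3:**
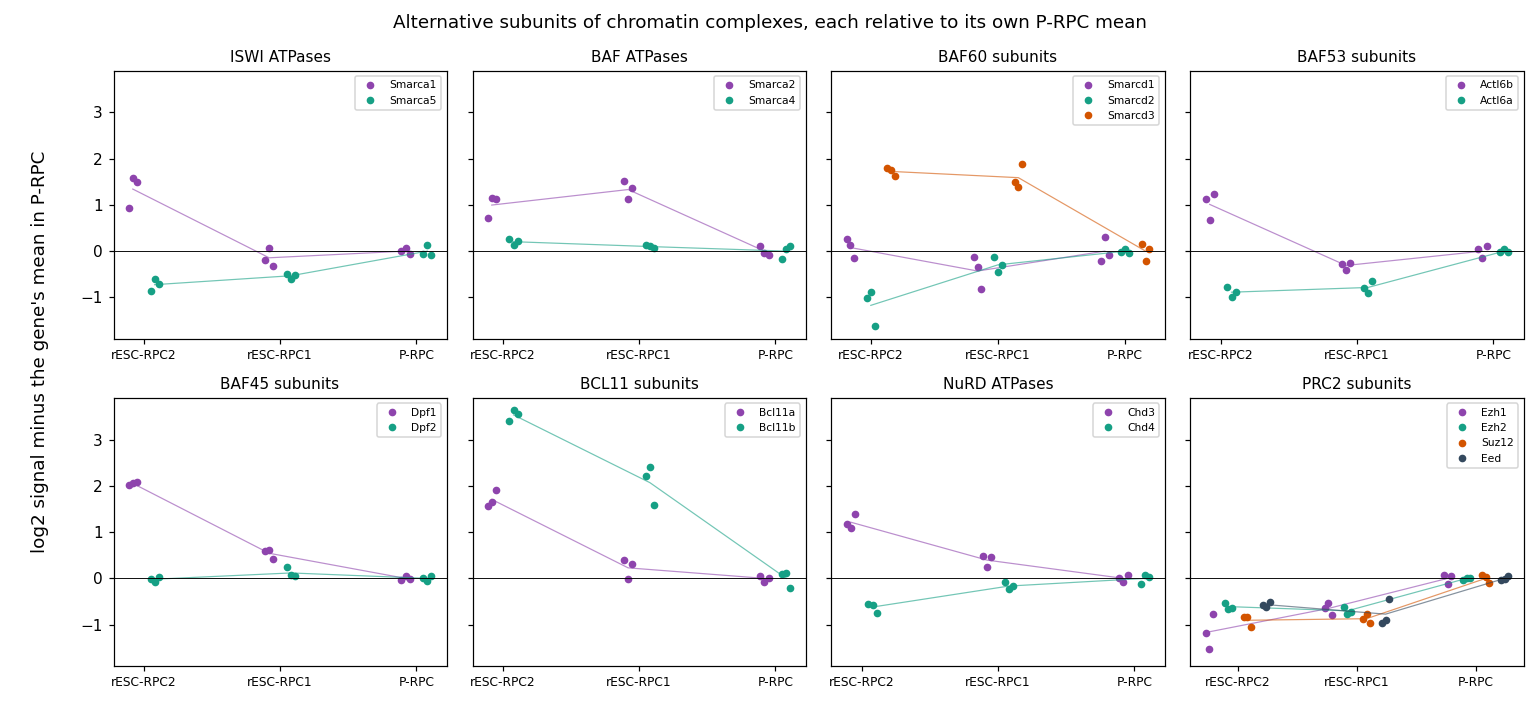
Log2 signal of alternative subunits on each array, minus the gene's own mean in P-RPC, for rESC-RPC2, rESC-RPC1 and P-RPC from left to right (3 arrays a group, with lines joining group means). Dpf1, Actl6b, Bcl11a, Smarca1 and Chd3 stood highest in rESC-RPC2, Smarcd3 was raised in both rESC-RPCs, and all 4 PRC2 subunits lay below their P-RPC means.

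Among ISWI remodelers, which space nucleosomes, Smarca1 and Smarca5 encode the alternative ATPases SNF2L and SNF2H. SNF2L is known from differentiated neurons and SNF2H from proliferating progenitors in mouse. Smarca1 had signals of 1498, 2348 and 2195 in rESC-RPC2 and 687, 819 and 625 in rESC-RPC1, against 783, 813 and 745 in P-RPC. The 3 rESC-RPC2 arrays were the highest, while rESC-RPC1 and P-RPC overlapped. Smarca1 rose 2.53-fold in rESC-RPC2 relative to P-RPC (log2 1.34 ± 0.16, adjusted p = 4.94e-05) and 2.80-fold against rESC-RPC1 (log2 1.49 ± 0.16, adjusted p = 5.16e-05). It was the only member called between the rESC-RPCs, and that call held under every alternative tried. Smarca5 was at 2255 ± 195 in rESC-RPC2, 2572 ± 95.8 in rESC-RPC1 and 3726 ± 319 in P-RPC, lower than P-RPC by less than 2-fold in rESC-RPC2 (log2 -0.72 ± 0.09, adjusted p = 5e-05) and in rESC-RPC1 (log2 -0.53 ± 0.09, adjusted p = 0.000463). Of 18 tested partners of the ISWI, INO80 and related remodelers, none rose in any comparison, 3 fell in rESC-RPC2 (Baz1a, Baz2b and Hells) and 2 in rESC-RPC1 (Baz2b and Hells) against P-RPC. That is 16.7% and 11.1% called lower, where 13.0% and 9.59% of all genes were. Baz1a, the ACF1 partner of SNF2H, fell by log2 -1.21 ± 0.14 in rESC-RPC2. Baz2b had signals of 155, 212 and 242 in rESC-RPC2 and 159, 223 and 181 in rESC-RPC1, against 631, 575 and 678 in P-RPC, with no overlap between P-RPC and either rESC-RPC. Smarcad1, a remodeler that helps to restore silent chromatin after replication, was higher in rESC-RPC2 than in rESC-RPC1 by log2 0.88 ± 0.14 (adjusted p = 0.000509), under the 2-fold limit, and by 0.26 (adjusted p = 0.439) on a further, dimmer probe set.

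Of 9 CHD remodelers, 1 rose and 2 fell in rESC-RPC2 and none rose and 2 fell in rESC-RPC1 against P-RPC. The called share was 33.3% and 22.2%, beside 23.8% and 21.6% of all genes. Chd7, the gene mutated in CHARGE syndrome and active at neural and eye enhancers, had the largest drop with a signal above the threshold on all arrays. It had signals of 617, 584 and 585 in rESC-RPC2 and 615, 722 and 466 in rESC-RPC1, against 2733, 2755 and 2963 in P-RPC. Every rESC-RPC array was far below the lowest P-RPC array. The fall was 4.73-fold in rESC-RPC2 (log2 -2.24 ± 0.14, adjusted p = 4.58e-07) and 4.76-fold in rESC-RPC1 (log2 -2.25 ± 0.14, adjusted p = 5.05e-07), and the other 2 Chd7 probe sets were also called lower in both, with log2 changes of -1.90 and -2.30 in rESC-RPC2 and -1.71 and -2.23 in rESC-RPC1. The rESC-RPCs overlapped, with a difference of 0.01 ± 0.14. 

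Chd3 and Chd4 encode alternative ATPases of the NuRD deacetylase complex. Chd3 had signals of 1016, 949 and 1169 in rESC-RPC2 and 630.5, 528 and 615 in rESC-RPC1, against 454, 423 and 469.9 in P-RPC, so that rESC-RPC2 was highest and P-RPC lowest with no overlap. It rose 2.32-fold in rESC-RPC2 relative to P-RPC (log2 1.21 ± 0.11, adjusted p = 7.65e-06) and was 1.77-fold higher than in rESC-RPC1, under the 2-fold limit (log2 0.82 ± 0.11, adjusted p = 0.000222). Chd4 stood at 1010.1 ± 72.8 in rESC-RPC2, 1382 ± 72.4 in rESC-RPC1 and 1552 ± 112 in P-RPC and was lower in rESC-RPC2 against P-RPC by log2 -0.62 ± 0.09 (adjusted p = 0.000201). A further, dimmer probe set of Chd4 gave -0.33 there (adjusted p = 0.0752). Chd1l (ALC1), a remodeler recruited to DNA damage, had signals of 206, 179 and 191 in rESC-RPC2 and 391, 418 and 328 in rESC-RPC1, against 436, 439.6 and 506 in P-RPC. It fell 2.40-fold in rESC-RPC2 relative to P-RPC (adjusted p = 1.72e-05), was 1.97-fold lower than in rESC-RPC1 and did not pass in rESC-RPC1 (adjusted p = 0.086). A further, dimmer probe set of Chd1l was lower against P-RPC in rESC-RPC2 (log2 -1.71, adjusted p = 0.00128) and in rESC-RPC1 (log2 -0.92, adjusted p = 0.0369). Between the rESC-RPCs this set gave -0.79 (adjusted p = 0.0789). Chd9 fell in rESC-RPC1 (log2 -1.10 ± 0.13, adjusted p = 3.45e-05) and was lower at under 2-fold in rESC-RPC2 (log2 -0.68 ± 0.13). Chd8, the CHD gene of the smallest changes, was at 1322 ± 33.8 in rESC-RPC2, 1266 ± 85.9 in rESC-RPC1 and 1326 ± 152 in P-RPC and passed the test in no comparison.

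**Figure D4:**
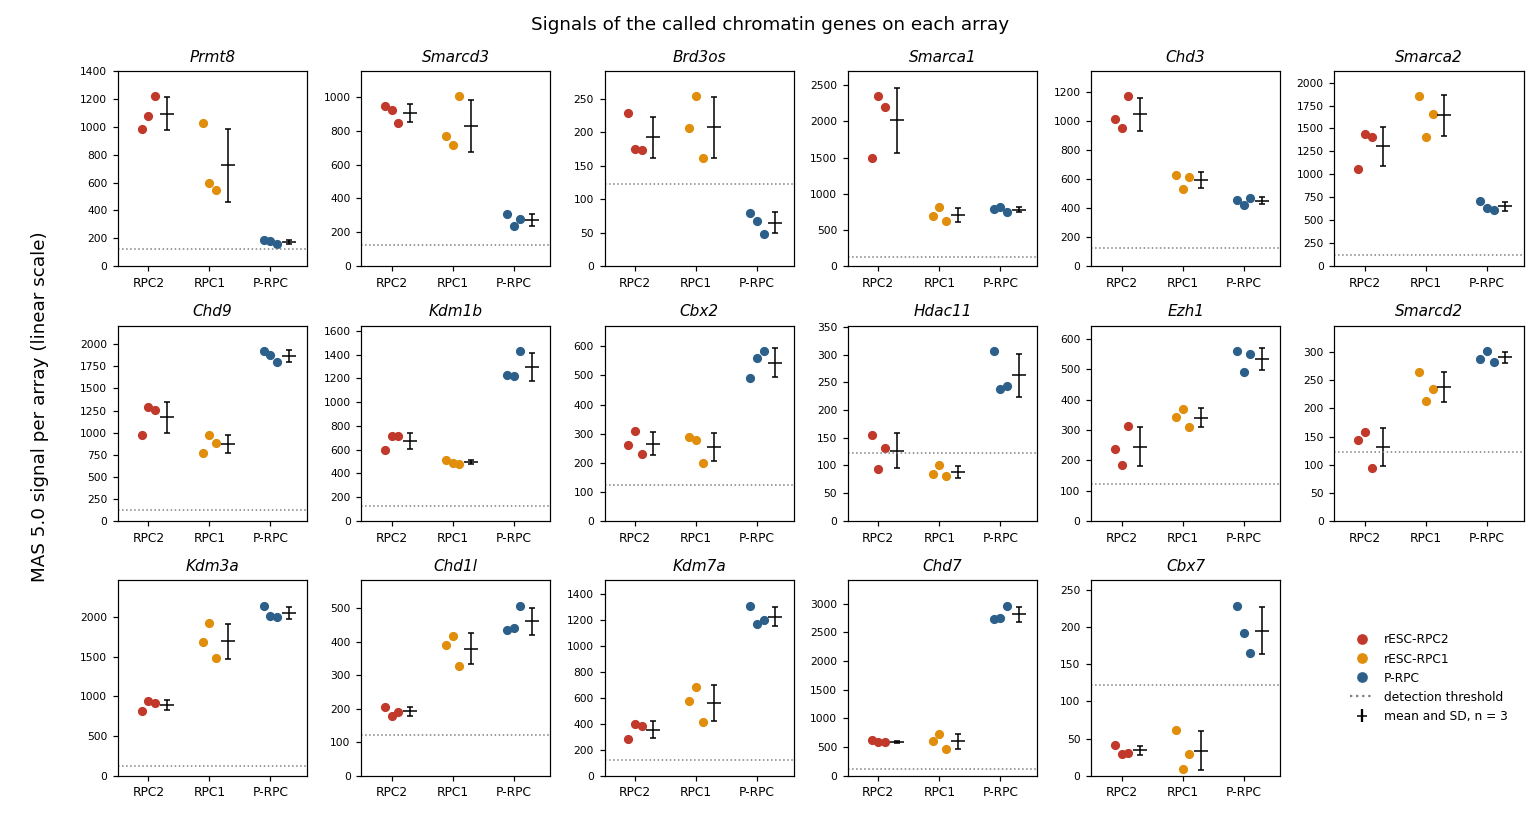
Signal of the 17 called chromatin genes on each of the 9 arrays on a linear axis that starts at 0 (RPC2 and RPC1 stand for rESC-RPC2 and rESC-RPC1), with the mean and SD of each group and the detection threshold as a dotted line. Genes are ordered by their change in rESC-RPC2 against P-RPC, from Prmt8, at 985 to 1221 in rESC-RPC2 and 160 to 186 in P-RPC, to Cbx7, which lay under the threshold on all rESC-RPC arrays.

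The PRC2 core was lower in the rESC-RPCs. PRC2 deposits methylation on histone H3 lysine 27 through Ezh2 or Ezh1, with Suz12 and Eed as its scaffold. All 4 core genes were below P-RPC on every rESC-RPC array and passed the adjusted p in both comparisons, where 63.3% and 60.1% of all genes did, but only Ezh1 in rESC-RPC2 passed 2-fold. Ezh1 had signals of 237, 186 and 312 in rESC-RPC2 and 343, 369 and 309.8 in rESC-RPC1, against 559.5, 492 and 551 in P-RPC and fell by log2 -1.16 ± 0.18 in rESC-RPC2 (adjusted p = 0.00023), a call lost without rESC-RPC2 replicate 2 (log2 -0.97). Ezh2, the form known from dividing cells, had signals of 2148, 1969 and 1994 in rESC-RPC2 and 2032, 1825 and 1879 in rESC-RPC1, against 3049.8, 3127 and 3142 in P-RPC, and the log2 change was -0.61 ± 0.07 in rESC-RPC2 and -0.70 ± 0.07 in rESC-RPC1. Suz12 changed by -0.91 ± 0.09 and -0.87 ± 0.09, and Eed by -0.57 ± 0.12 and -0.77 ± 0.12, in rESC-RPC2 and in rESC-RPC1. None of the 6 tested PRC2 accessory genes was called in any comparison. Over all genes, 23.8% and 21.6% were called in rESC-RPC2 and rESC-RPC1 against P-RPC, and 14.3% between the rESC-RPCs. Aebp2, an accessory subunit, was lower in rESC-RPC2 at under 2-fold against P-RPC (log2 -0.83 ± 0.08).

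The Cbx proteins of PRC1 read the mark left by PRC2. Cbx2 had signals of 260.1, 308 and 229 in rESC-RPC2 and 287, 279 and 199.6 in rESC-RPC1, against 490.0, 559 and 584 in P-RPC, with all P-RPC arrays above the rest, and fell by log2 -1.04 ± 0.17 in rESC-RPC2 (adjusted p = 0.000379) and -1.11 ± 0.17 in rESC-RPC1 (adjusted p = 0.000274). Its changes were close to the limit: quantile normalization brought the change in rESC-RPC2 to -0.99, median centring to -0.96, and leaving out P-RPC replicate 3 or rESC-RPC2 replicate 3 to -0.99 and -0.94, while leaving out rESC-RPC1 replicate 3 brought the change in rESC-RPC1 to -0.94. Cbx7 had signals of 41.2, 29.7 and 31.2 in rESC-RPC2 and 62.2, 9.43 and 29.9 in rESC-RPC1, against 228, 191 and 165 in P-RPC. It was under the threshold on all 6 rESC-RPC arrays and above it on all P-RPC arrays, so that the fall is at least 1.58-fold in each rESC-RPC. Cbx7 was tested only because the P-RPC arrays passed the threshold, so its call is no support for a difference. With signals under the threshold set to it, the change was log2 -0.66 in each and not called. Cbx6, also of PRC1, was slightly higher in both at 2379.6 ± 79.4 in rESC-RPC2, 2160.5 ± 117 in rESC-RPC1 and 1859.8 ± 76.3 in P-RPC. The further probe set of Cbx6 did not pass in rESC-RPC2 (log2 0.18, adjusted p = 0.276) or in rESC-RPC1 (log2 0.03, adjusted p = 0.869). Of 14 tested PRC1 partners, Scmh1 fell in rESC-RPC1 against P-RPC (log2 -1.03 ± 0.17), and Rybp was higher in rESC-RPC2 than in rESC-RPC1 (log2 1.01 ± 0.06, adjusted p = 2.15e-06), and no other was called. Each is 7.14% of the 14, where 21.6% of all genes were called in rESC-RPC1 against P-RPC and 14.3% between the rESC-RPCs. None was called in rESC-RPC2 against P-RPC, where 23.8% of all genes were.

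The remaining Cbx genes encode heterochromatin protein 1 (HP1), which binds methylated histone H3 lysine 9, and their differences had opposite signs. Cbx1 (HP1 beta) was at 3314 ± 106 in rESC-RPC2, 3708 ± 87.9 in rESC-RPC1 and 6639 ± 539 in P-RPC, with log2 -1.00 ± 0.07 in rESC-RPC2, just short of the 2-fold limit (adjusted p = 1.23e-06), and -0.84 ± 0.07 in rESC-RPC1. A further probe set of Cbx1 with a mean signal of 1761 gave -0.76 (adjusted p = 2.65e-05) in rESC-RPC2 and -0.58 (adjusted p = 0.000206) in rESC-RPC1. A dimmer one, with a mean signal of 204, gave 0.28 (adjusted p = 0.115) and 0.22 (adjusted p = 0.215). Cbx5 (HP1 alpha) was at 1006 ± 84.7 in rESC-RPC2, 965 ± 83.8 in rESC-RPC1 and 522 ± 19.8 in P-RPC, higher in rESC-RPC2 by 0.94 ± 0.10 (adjusted p = 2.01e-05) and in rESC-RPC1 by 0.88 ± 0.10 (adjusted p = 3.62e-05). Neither gene's P-RPC arrays overlapped with those of the rESC-RPCs.

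The DNA methyltransferases and Tet dioxygenases, which add methyl groups to cytosine and oxidise them, held no call (2 Dnmt and 3 Tet genes tested). Over all genes, 23.8% were called in rESC-RPC2 and 21.6% in rESC-RPC1 against P-RPC. Dnmt1, the maintenance enzyme, was at 2069.8 ± 173 in rESC-RPC2, 1527 ± 66.8 in rESC-RPC1 and 2138 ± 180.3 in P-RPC. It was below P-RPC in rESC-RPC1 (log2 -0.48 ± 0.09, adjusted p = 0.00114) and higher in rESC-RPC2 than in rESC-RPC1 (log2 0.44 ± 0.09, adjusted p = 0.00302). The de novo enzyme Dnmt3a was at 826 ± 133 in rESC-RPC2, 871 ± 100.3 in rESC-RPC1 and 781 ± 79.5 in P-RPC and passed in no comparison, while a further probe set near the threshold was lower in rESC-RPC2 against P-RPC (log2 -0.93, adjusted p = 0.0367). Tet2 was higher in rESC-RPC2 by log2 0.67 ± 0.09 (adjusted p = 0.000131) and in rESC-RPC1 by 0.87 ± 0.09 (adjusted p = 2.36e-05), with all 6 rESC-RPC arrays above the P-RPC arrays. Tet1 and Tet3 passed in no comparison, with log2 changes of -0.56 ± 0.24 and -0.05 ± 0.10 in rESC-RPC2 and -0.15 ± 0.24 and -0.18 ± 0.10 in rESC-RPC1 against P-RPC.

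Calls were found among the genes that work with these enzymes. Of 8 tested, 1 rose and 3 fell in each rESC-RPC against P-RPC, and 1 fell in rESC-RPC2 against rESC-RPC1. The called share was 50% in each comparison with P-RPC, where 23.8% and 21.6% of all genes were called. Between the rESC-RPCs it was 12.5%, beside 14.3% of all genes. Uhrf1, which brings Dnmt1 to replicating DNA, had signals of 483, 372 and 375 in rESC-RPC2 and 418, 338 and 384 in rESC-RPC1, against 1913, 2206 and 1579 in P-RPC, and fell 4.62-fold in rESC-RPC2 and 4.97-fold in rESC-RPC1 (adjusted p = 8.82e-07 and 7.39e-07). Hells, a remodeler needed for DNA methylation at repeats, had signals of 409, 509 and 454 in rESC-RPC2 and 398, 416 and 362 in rESC-RPC1, against 1423, 1541 and 1310.3 in P-RPC and fell 3.12-fold and 3.63-fold. Gadd45a, a stress gene linked to DNA demethylation, was at 179 ± 45.5 in rESC-RPC2, 366 ± 15.7 in rESC-RPC1 and 1366 ± 55.2 in P-RPC and was lowest in rESC-RPC2, below rESC-RPC1 by log2 -1.06 ± 0.16 (adjusted p = 0.000367). Gadd45b went the other way, at 936 ± 257 in rESC-RPC2, 855 ± 330.3 in rESC-RPC1 and 55.6 ± 11.7 in P-RPC. All P-RPC arrays were under the threshold for Gadd45b, so that it was at least 7.45-fold higher in rESC-RPC2 and at least 6.64-fold higher in rESC-RPC1. Gadd45b was tested only because the rESC-RPC arrays passed the threshold, so its calls are no support for a difference, though they count in the shares above. Proliferation genes moved with Uhrf1, Hells and Ezh2: of 17 tested, 8 fell in rESC-RPC2 and 6 in rESC-RPC1 against P-RPC, and their summed signal was 30561 to 36769 in rESC-RPC2, 35637 to 40642 in rESC-RPC1 and 66488 to 71022 in P-RPC. Their part in these changes was not tested.

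The histone methyltransferases of the Kmt and Setd families held no call, with none of 17 past both limits in any comparison. At an adjusted p under 0.05, 5 were lower and none higher in rESC-RPC2, and 6 lower and 1 higher in rESC-RPC1, against P-RPC. These are 29.4% and 41.2% of the 17, where 63.3% and 60.1% of all genes passed in either direction (33.0% and 30.1% lower). Setdb2, a histone H3 lysine 9 methyltransferase, came closest to 2-fold, at 259 ± 25.9 in rESC-RPC2, 306 ± 25.7 in rESC-RPC1 and 488 ± 13.9 in P-RPC and a log2 change of -0.92 ± 0.12 in rESC-RPC2 (adjusted p = 8.77e-05). Kmt5b, which methylates histone H4 lysine 20, was lower in rESC-RPC1 by -0.87 ± 0.19 (adjusted p = 0.0028). Kmt2b and Setd3 had the smallest changes of each family. Kmt2b was at 109 ± 17.3 in rESC-RPC2, 123 ± 17.3 in rESC-RPC1 and 124 ± 21.2 in P-RPC, and so close to the detection threshold that it reached it on 4 of 9 arrays. Setd3 was at 1068 ± 81.9 in rESC-RPC2, 1091 ± 54.8 in rESC-RPC1 and 981 ± 37.3 in P-RPC, but its further probe set was higher against P-RPC in rESC-RPC2 (log2 0.39, adjusted p = 0.0222) and in rESC-RPC1 (log2 0.54, adjusted p = 0.00422). Of 19 other tested lysine methyltransferases and complex subunits, 1 rose and 1 fell in rESC-RPC2 and none rose and 3 fell in rESC-RPC1 against P-RPC. Mecom, a zinc finger factor of the PRDM family, was lower in both, with signals of 78.4, 57.1 and 89.6 in rESC-RPC2 and 69.3, 57 and 128 in rESC-RPC1, against 571, 573 and 684 in P-RPC. In rESC-RPC2, all arrays were under the threshold and the fall was at least 4.95-fold, and in rESC-RPC1, where 1 of 3 arrays was just above it, the fall was 4.88-fold with signals under the threshold set to it. Mecom would not have been tested without its P-RPC arrays, so its calls are no support for a difference. Ehmt1 and Suv39h2, which methylate histone H3 lysine 9, fell in rESC-RPC1 (log2 -1.09 ± 0.09 and -1.22 ± 0.19), and Smyd2 rose in rESC-RPC2 (log2 1.13 ± 0.17).

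Of 13 histone demethylase (Kdm) genes tested, 2 fell in rESC-RPC2 and 2 in rESC-RPC1 against P-RPC, with Kdm7a in both, and none was called higher. These are 15.4% in each, where 13.0% and 9.59% of all genes were called lower. Kdm7a removes repressive methyl groups from histone H3 lysines 9 and 27, and had signals of 280.2, 399.7 and 386 in rESC-RPC2 and 578, 686 and 412 in rESC-RPC1, against 1306, 1166 and 1200.3 in P-RPC. No array overlapped between groups, and rESC-RPC2 was lowest. Its fall was 3.48-fold in rESC-RPC2 (log2 -1.80 ± 0.19, adjusted p = 1.75e-05) and 2.24-fold in rESC-RPC1 (log2 -1.16 ± 0.19, adjusted p = 0.00041), although the call in rESC-RPC1 was lost without rESC-RPC1 replicate 3 (log2 -0.96). Kdm3a, a histone H3 lysine 9 demethylase that responds to hypoxia, had signals of 819, 941 and 919 in rESC-RPC2 and 1678, 1921 and 1478 in rESC-RPC1, against 2137, 2013 and 1998 in P-RPC. It fell 2.30-fold in rESC-RPC2 relative to P-RPC (adjusted p = 5.04e-06), and was 1.89-fold lower than in rESC-RPC1 (adjusted p = 6.77e-05). Kdm1b (LSD2) had signals of 598, 717 and 712 in rESC-RPC2 and 516, 492 and 479 in rESC-RPC1, against 1231, 1223 and 1430.1 in P-RPC, and fell 2.61-fold in rESC-RPC1 (adjusted p = 2.34e-06) and was 1.92-fold lower in rESC-RPC2 (adjusted p = 2.99e-05). Its paralog Kdm1a (LSD1) was higher at under 2-fold, by log2 0.44 ± 0.09 in rESC-RPC2 and 0.27 ± 0.09 in rESC-RPC1. Kdm2b, which recruits a PRC1 form to CpG islands, was highest in rESC-RPC2, by 0.52 ± 0.13 against P-RPC and 0.49 ± 0.13 against rESC-RPC1. Kdm5b had the smallest changes of the family and passed in no comparison on its main probe set. A further probe set of Kdm5b, of about the same signal, was higher in rESC-RPC1 against P-RPC (log2 0.62, adjusted p = 0.00017) and lower in rESC-RPC2 than in rESC-RPC1 (log2 -0.57, adjusted p = 0.000498), and another was higher against P-RPC in rESC-RPC2 (log2 0.41, adjusted p = 0.023) and in rESC-RPC1 (log2 0.45, adjusted p = 0.0167).

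Of the 8 histone deacetylases tested, 1 was called in each comparison with P-RPC and none between the rESC-RPCs. That is 12.5%, beside 23.8% of all genes in rESC-RPC2 and 21.6% in rESC-RPC1. In both comparisons it was Hdac11. This class IV enzyme had signals of 156, 93.9 and 131 in rESC-RPC2 and 84.5, 100.5 and 80.2 in rESC-RPC1, against 306, 237 and 243 in P-RPC, with all P-RPC arrays above the rest. All 3 rESC-RPC1 arrays were under the threshold, so that it was at least 2.12-fold lower there (adjusted p = 0.000163). Hdac11 would not have been tested without its P-RPC arrays, so its calls are no support for a difference. In rESC-RPC2, where 2 of 3 arrays were above the threshold, the log2 change was -1.07 ± 0.22 (adjusted p = 0.0018), and this call was lost without P-RPC replicate 1 (-0.95), the array with the high lens signal, without rESC-RPC2 replicate 2 (-0.86), on median centring (-0.99) and with signals under the threshold set to it (-0.94). Of the class I enzymes, Hdac2 was at 10397 ± 389.7 in rESC-RPC2, 8914 ± 93 in rESC-RPC1 and 9570.1 ± 246 in P-RPC, and Hdac1 was lower in rESC-RPC2 than in rESC-RPC1 by log2 -0.50 ± 0.12 (adjusted p = 0.00513). The further probe set of Hdac1 gave -0.34 there (adjusted p = 0.0854). Hdac8, also of class I, was at 192 ± 15.8 in rESC-RPC2, 325 ± 6.75 in rESC-RPC1 and 238 ± 20.1 in P-RPC, lower in rESC-RPC2 than in rESC-RPC1 by -0.76 ± 0.13 (adjusted p = 0.000798) and above P-RPC in rESC-RPC1 by 0.45 ± 0.13 (adjusted p = 0.0116). Hdac6, the tubulin deacetylase, was higher against P-RPC by 0.62 ± 0.12 in rESC-RPC2 and 0.62 ± 0.12 in rESC-RPC1. Of 14 tested subunits of deacetylase complexes, 1 was called, only in rESC-RPC2 against P-RPC (7.14%, where 23.8% of all genes were). It was Rcor2, a CoREST subunit of neural progenitors. It had signals of 165, 132 and 211 in rESC-RPC2 and 427, 285 and 296 in rESC-RPC1, against 533, 550.4 and 652 in P-RPC, lowest in rESC-RPC2 with no overlap, and fell by log2 -1.79 ± 0.20 against P-RPC (adjusted p = 3.03e-05). Of 16 acetyltransferase genes and partners, 2 fell in each rESC-RPC against P-RPC, with Brpf1, a scaffold of the KAT6 complexes, at 642 ± 8.46 in rESC-RPC2, 652 ± 50.2 in rESC-RPC1 and 1919 ± 60.5 in P-RPC. The 2 are 12.5% of the 16, where 13.0% of all genes fell in rESC-RPC2 and 9.59% in rESC-RPC1.

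None of the 6 sirtuins tested was called. Over all genes, 23.8% and 21.6% were called in rESC-RPC2 and rESC-RPC1 against P-RPC, and 14.3% between the rESC-RPCs. Sirt5, a mitochondrial desuccinylase, was at 3167 ± 147 in rESC-RPC2, 2289 ± 109 in rESC-RPC1 and 1688 ± 33.4 in P-RPC with no overlap between groups, above P-RPC in rESC-RPC2 by log2 0.91 ± 0.07 (adjusted p = 2.35e-06) and above rESC-RPC1 by 0.47 ± 0.07 (adjusted p = 0.000413). Sirt2, a mainly cytoplasmic deacetylase, was at 665 ± 64.5 in rESC-RPC2, 1196 ± 249 in rESC-RPC1 and 798 ± 13.8 in P-RPC and was lower in rESC-RPC2 than in rESC-RPC1 by log2 -0.83 ± 0.15 (adjusted p = 0.00102). Sirt7, a nucleolar enzyme, was lower by -0.64 ± 0.17 in rESC-RPC2 and -0.89 ± 0.17 in rESC-RPC1 against P-RPC. Sirt6 passed in no comparison.

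Among the 7 arginine methyltransferases tested, 1 was called in each comparison with P-RPC (14.3%). Over all genes, 23.8% were called in rESC-RPC2 and 21.6% in rESC-RPC1. The called gene was Prmt8, which had the largest rise of all members. It encodes a membrane-anchored enzyme known mainly from neurons, and had signals of 985, 1077 and 1221 in rESC-RPC2 and 1026, 600.0 and 544 in rESC-RPC1, against 186, 180.0 and 160.1 in P-RPC. The lowest rESC-RPC array was above every P-RPC array, and replicate 1 of rESC-RPC1 lay among the rESC-RPC2 values. Prmt8 rose 6.23-fold in rESC-RPC2 (log2 2.64 ± 0.21, adjusted p = 2.39e-06) and 3.97-fold in rESC-RPC1 (log2 1.99 ± 0.21, adjusted p = 1.93e-05). The difference between the rESC-RPCs was log2 0.65 ± 0.21 (adjusted p = 0.0255), with overlapping arrays. Prmt2 was at 1465 ± 81.8 in rESC-RPC2, 976 ± 57.5 in rESC-RPC1 and 783 ± 16.7 in P-RPC, stepwise higher in rESC-RPC2 (log2 0.90 ± 0.09) and rESC-RPC1 (log2 0.32 ± 0.09) than in P-RPC with no overlap. Prmt5, the main symmetric arginine methyltransferase, was lower by -0.33 ± 0.10 and -0.39 ± 0.10 in rESC-RPC2 and in rESC-RPC1, and Prmt3 was level at 239.8 ± 34.3 in rESC-RPC2, 229 ± 60.9 in rESC-RPC1 and 229 ± 11.3 in P-RPC.

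The bromodomain proteins, readers of acetylated histones, were mostly lower by less than 2-fold. Of 8, 5 passed the adjusted p and were lower in rESC-RPC2 against P-RPC, where 33.0% of all genes were, and 6 in rESC-RPC1 against P-RPC, where 30.1% were. Brd9, a subunit of the non-canonical BAF complex, was at 1125 ± 41.7 in rESC-RPC2, 952 ± 42.7 in rESC-RPC1 and 1409 ± 79 in P-RPC, and Brd8 at 1285 ± 52.8 in rESC-RPC2, 1562 ± 33.9 in rESC-RPC1 and 1958 ± 104 in P-RPC. Brd10 was lower by log2 -0.58 ± 0.12 in rESC-RPC2 and -0.72 ± 0.12 in rESC-RPC1, and its other probe set was called lower in rESC-RPC1 (log2 -1.06, adjusted p = 3.19e-05). The smallest change in the family was that of Brd7, a subunit of the PBAF complex, at 2339.5 ± 85.2 in rESC-RPC2, 2262 ± 131 in rESC-RPC1 and 2659.6 ± 144 in P-RPC. The called symbol was Brd3os, the RNA opposite to Brd3, with signals of 228, 175 and 174 in rESC-RPC2 and 206, 254 and 162 in rESC-RPC1, against 78.8, 67.5 and 48.7 in P-RPC. As 1 of 8 it is 12.5% in each comparison with P-RPC, beside 23.8% (rESC-RPC2) and 21.6% (rESC-RPC1) of all genes. For Brd3os the threshold limits the size of the change. All P-RPC arrays were under the threshold, so that it was at least 1.56-fold higher in rESC-RPC2 and at least 1.66-fold higher in rESC-RPC1. Brd3os was tested only because the rESC-RPC arrays passed the threshold, so its calls are no support for a difference. With signals under the threshold set to it, neither change was called. Brd3 itself was at 1292 ± 149 in rESC-RPC2, 1088 ± 72.7 in rESC-RPC1 and 1226 ± 67.2 in P-RPC and passed in no comparison.

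By pattern, the 17 called members fell into small sets. Smarcd3, Prmt8 and Brd3os were above P-RPC in both rESC-RPCs, and Chd7, Cbx2, Cbx7, Hdac11 and Kdm7a were lower in both. Among these, Brd3os and Cbx7 met the detection filter only through the groups in which they were higher. Hdac11 also needed its P-RPC arrays to meet it, as only 2 rESC-RPC arrays reached the threshold. Smarca1 and Chd3 were called higher in rESC-RPC2 only and Smarca2 in rESC-RPC1 only, Kdm3a, Chd1l, Ezh1 and Smarcd2 were called lower in rESC-RPC2 only, and Kdm1b and Chd9 in rESC-RPC1 only. A call in only 1 of the comparisons does not show that the rESC-RPCs differ. Of these 9 genes, the direct comparison on the main probe set passed the adjusted p for Smarca1, Chd3, Kdm3a, Chd1l, Ezh1, Smarcd2, Kdm1b and Chd9, with Smarca1 the only one past 2-fold. The further probe set of Chd1l did not pass there. On the main probe set, 19 members passed the adjusted p in no comparison, among them Chd8, Smarca4, Kmt2b, Prmt3, Tet3 and Sirt6. Of the 5 of these with a further tested probe set, Dnmt3a, Kdm5b and Setd3 passed in at least 1 comparison on that set, and Smarca4 and Tet3 did not. Groups did not overlap for 73.7% of the members in rESC-RPC2 against P-RPC, 70.5% in rESC-RPC1 against P-RPC and 43.2% in rESC-RPC2 against rESC-RPC1, where 73.0%, 66.3% and 53.9% of all genes did not.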

How the data were processed

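RNA of 9 samples (3 biological replicates each of rESC-RPC2, rESC-RPC1 and P-RPC, from 3 independent experiments) was hybridized to single-colour arrays. The authors deposited linear intensities, 1 MAS 5.0 signal per probe set, normalized in GeneSpring. The MAS5 version is not stated. The trimmed mean (2% from each end) was 500.0 on every array and medians were 113 to 128, so the arrays were not rescaled. The number of arrays limits the precision, and no scan date or batch was used.

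Of 31099 probe sets, 57 controls were left out, and 20826 with 1 gene symbol (14217 genes) were kept, with 436 of several symbols and 9780 of none set aside. The probe set of highest mean signal stood for each gene (41 members have several). Symbols came from the platform annotation, and 20758 probe sets had an Entrez ID in the RefSeq table, with 0 symbols updated. Signals were floored at 1 before log2. Genes at or above 123 (the 50th percentile of all signals) on 3 of 9 arrays or more were tested with limma 3.58.1 in R 4.3.3 (1 mean per group over all 9 arrays, trended eBayes), adjusted by Benjamini-Hochberg over all 9956 genes, and called at an adjusted p under 0.05 and 2-fold. Fold bounds ("at least") set signals under the threshold to it. The fit was tested on simulated data.

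Same-numbered replicates did not pair: the correlations of their deviations from the group means were -0.04 to 0.27, and 1 of 9 was above 0.1. Named genes are every called member, the least-changed tested member of each family, all tested Dnmt, Tet and PRC2 core genes, Smarcd3, and up to 4 called genes of each partner list, and others named as examples were chosen after their values were seen. The members and lists were chosen with earlier results of these data known. Alternatives covered normalization, filters, floors, probe set choice, the variance model, the samples in the fit, the replicate block, the study's own test and leaving out each replicate.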

Additional observations from a re-analysis of the deposited data

How the results depend on the processing

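Over 21 alternatives, the 26 calls of a member in a comparison gave 520 unchanged outcomes and 16 lost calls, none with a change of direction. Of the 26 calls, 16 were never lost in the alternatives that tested them. Alternatives that left a gene untested were not counted. These were the stricter filter for Cbx7 and Hdac11, and leaving out any P-RPC replicate for Cbx7. With no minimum fold the counts of members were 59 in rESC-RPC2 against P-RPC, 56 in rESC-RPC1 against P-RPC and 36 in rESC-RPC2 against rESC-RPC1, and those of all genes 6299, 5987 and 4807. Testing every probe set gave 2 member calls in rESC-RPC2 against rESC-RPC1, the second on a further probe set of Smarca2. Leaving out each replicate gave 1 to 4 member calls in rESC-RPC2 against rESC-RPC1, with 4 (Chd1l, Kdm3a and Sirt2 beside Smarca1) without rESC-RPC1 replicate 3 and 3 (Chd1l and Smarcad1) without rESC-RPC2 replicate 1. Median centring turned the 5 higher and 9 lower members of rESC-RPC2 against P-RPC into 7 and 7, as Cbx5 (log2 1.02) and Smarca2 (1.08) were gained and Cbx2 and Hdac11 lost. The scalings moved the median of all genes by under 0.1 on the log2 scale. With the replicate number as a block the member calls stayed at 14, 11 and 1, and the block changed no call of a member. The study's own t-test gave the same counts of members at its unadjusted threshold. Cbx7, Brd3os and Hdac11 lie close to the detection threshold, and their fold changes are limited by it.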
